A study of Mus musculus with 6 samples.

Results

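The genes described here make the machinery that copies DNA and supplies its building blocks. They are the 46 named genes of DNA replication and nucleotide synthesis, found by symbol among the 34745 genes of the deposited table. The rule uses gene names only, but the list was chosen with earlier results of these data known. Its shares beside those of all genes are descriptions. The sequenced RNA came from primary renal fibroblasts of wild-type (WT) mice, either cultured alone (3 libraries) or cocultured with Th17 cells (3 libraries). For coculture, fibroblasts attached for 6 h, an insert with pores of 0.4 μm was placed above them, Th17 cells were seeded into it, and only the fibroblasts below were collected after 24 h. The Th17 cells, helper T cells that make interleukin-17, came from mouse spleen CD4+ cells activated through CD3 and CD28 with IL-1β, IL-6, IL-23 and anti-IFN-γ. The lone wells are described only as fibroblasts without Th17 cells, so the part played by insert, medium and cells cannot be told apart. The sources used here do not say if replicate libraries stand for different mice or for repeated wells, and SD, SE and p therefore measure the spread between these libraries only.

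Before a cell divides, the origin recognition complex with CDC6 and CDT1 loads rings of MCM proteins onto DNA, a step called licensing. At the start of S phase the rings gain CDC45 and the GINS complex and become active helicases, after which polymerase alpha with primase makes short primers that polymerases delta and epsilon extend. The sliding clamp PCNA holds polymerases on DNA, and ribonucleotide reductase and thymidylate enzymes supply deoxynucleotides. Many of these genes are known targets of the E2F transcription factors, which the retinoblastoma protein restrains in resting cells.

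Some of these genes hold the letters of a short E2F motif ahead of their start. The 250 bases upstream of the RefSeq transcription start (build GRCm38.p6) are printed for 5 such genes, 5′ to 3′ on the gene strand. Capitals mark the letters TTTGGCGC, TTTCCCGC and TTTCGCGC, 3 spellings of the E2F motif, searched on both strands. Mcm6, Mcm5 and Pola1 were called lower after coculture, and Orc1 and Gins3 were not called different.
Mcm6, helicase ring subunit, chr1:128359706-128359955, minus strand: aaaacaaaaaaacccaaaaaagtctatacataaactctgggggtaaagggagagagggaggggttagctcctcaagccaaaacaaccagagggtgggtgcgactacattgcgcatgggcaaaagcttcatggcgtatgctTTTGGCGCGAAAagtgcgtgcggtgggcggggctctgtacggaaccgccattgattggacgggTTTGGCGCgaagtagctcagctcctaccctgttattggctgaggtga
Mcm5, helicase ring subunit, chr8:75109259-75109508, plus strand: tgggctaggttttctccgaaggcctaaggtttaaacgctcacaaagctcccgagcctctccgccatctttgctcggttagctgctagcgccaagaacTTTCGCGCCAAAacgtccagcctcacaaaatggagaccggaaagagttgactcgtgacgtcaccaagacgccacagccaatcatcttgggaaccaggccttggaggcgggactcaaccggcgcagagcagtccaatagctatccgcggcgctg
Pola1, catalytic subunit of polymerase alpha, chrX:93632156-93632405, minus strand: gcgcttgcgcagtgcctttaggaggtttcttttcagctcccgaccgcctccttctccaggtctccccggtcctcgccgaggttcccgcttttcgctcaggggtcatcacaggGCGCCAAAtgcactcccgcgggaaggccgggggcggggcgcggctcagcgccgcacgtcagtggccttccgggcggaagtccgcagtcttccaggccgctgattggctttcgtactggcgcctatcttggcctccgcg
Orc1, largest origin recognition subunit, chr4:108579204-108579453, plus strand: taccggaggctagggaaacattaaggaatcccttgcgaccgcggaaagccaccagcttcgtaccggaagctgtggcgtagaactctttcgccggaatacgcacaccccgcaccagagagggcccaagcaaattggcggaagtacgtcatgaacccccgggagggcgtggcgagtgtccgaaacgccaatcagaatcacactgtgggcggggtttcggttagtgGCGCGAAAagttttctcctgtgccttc
Gins3, GINS complex subunit, chr8:95633309-95633558, plus strand: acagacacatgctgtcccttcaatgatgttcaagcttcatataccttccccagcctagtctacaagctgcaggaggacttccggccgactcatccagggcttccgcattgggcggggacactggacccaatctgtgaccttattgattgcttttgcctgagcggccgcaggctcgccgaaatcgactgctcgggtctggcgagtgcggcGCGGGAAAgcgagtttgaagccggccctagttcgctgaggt
In Mcm6 a forward TTTGGCGC that begins 110 bases before the start overlaps a reverse TTTCGCGC that begins 106 bases before it, and a further TTTGGCGC begins 47 bases before it. In Mcm5 a forward TTTCGCGC (153 bases before) overlaps a reverse TTTGGCGC (149 bases before).

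Across the full RefSeq windows of 250 bases before to 50 after the start, 38 of the 46 genes had a window, and 13 of these (34.2%) held E2F letters. The same letters stood in 3.64% of the 9609 windows of all genes tested and in 1.84% of all 32851 windows. Mcm3, Mcm5, Mcm6, Mcm7 and Rfc3 held more than 1 match, and Cdc6, Cdt1, Gins3, Orc1, Pola1, Pold1, Pold3 and Pole2 held 1. After coculture 7 of the 13 genes with these letters and 18 of the 25 without them were lower at an adjusted p below 0.05, with median log2 fold changes of −0.41 and −0.38. Of all genes tested, 20.0% were lower by this rule. The medians of members with and without the letters were thus close to each other. Over all tested genes with a window, the medians with and without the letters were −0.05 and 0.01. A match is a stretch of letters and not a bound site, and a window without one says only that these letters are not in it. Windows of 7 members lie more than 100 bases from the start given in the deposited table. They are Cdc6 and Mcm7, counted with the letters, and Dut, E2f1, Fen1, Lig1 and Pcna, counted without them. Pole, Gins1, Prim2, Mcm4, Gins2, Gins4, Rfc2 and Ccne2 had no window.

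Most replication transcripts were lower after coculture with Th17 cells, by modest amounts. Of the 46 genes, all of which were expressed enough to test, 30 (65.2%) were lower and 1, Ccne1, was higher at an adjusted p below 0.05 by edgeR's quasi-likelihood test. Among all 13088 genes tested, 20.0% were called lower and 17.1% higher. A decrease of more than 2-fold was seen for 5 members (10.9%; 7.78% of all genes), namely Mcm6, Mcm10, Pola1, Lig1 and Chaf1b. All of these except Mcm6 lie close to the limit, and with library size as the only scaling or with limma on log2(FPKM + 1) 1 gene passed it, whereas without cocultured replicate 1 there were 2. The median log2 fold change of the members was −0.42, a level 0.749 times that of lone fibroblasts, with quartiles of −0.79 and −0.26. All genes tested had a median of 0.00 and quartiles of −0.28 and 0.25. In bulk RNA, fewer cells in S phase and less of each transcript per cell cannot be told apart.

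**Figure D1:**
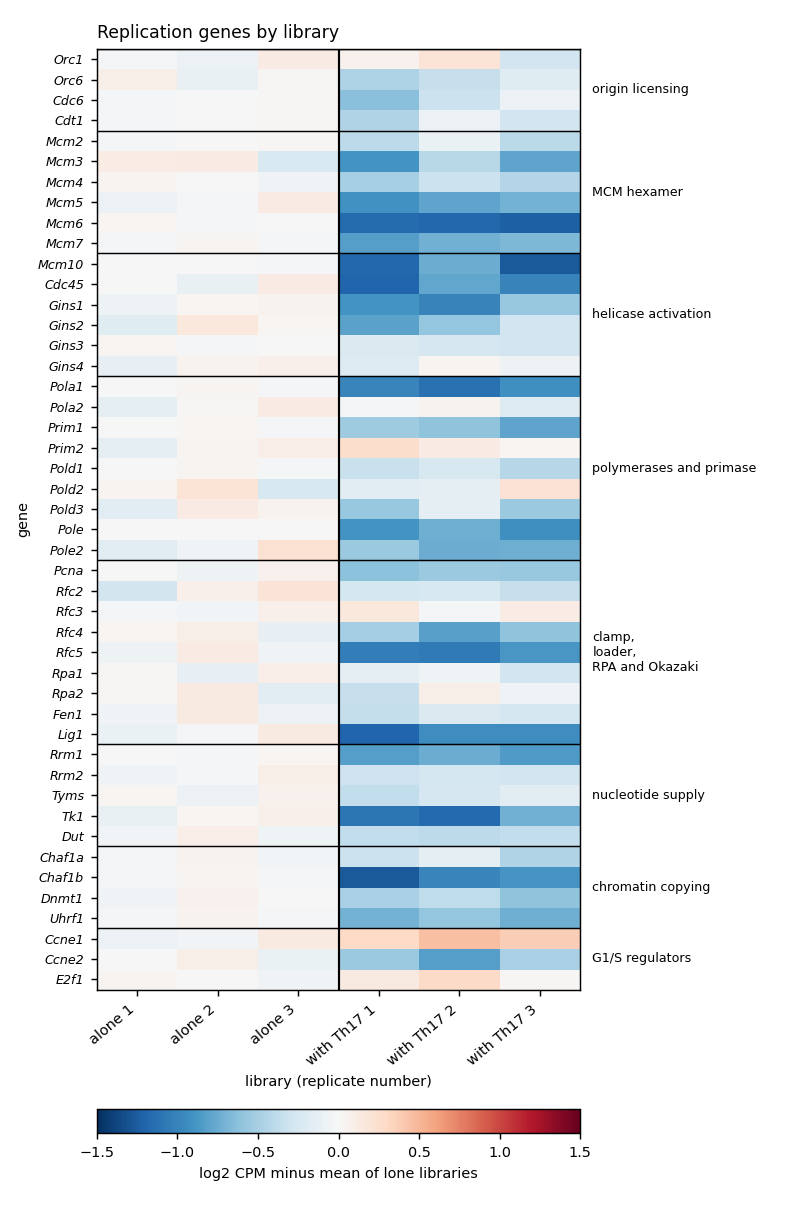
Expression of the 46 genes (rows, grouped by role) in the 6 libraries (columns), as log2 CPM minus the mean of the 3 lone libraries, blue lower and red higher. The cocultured columns are mostly blue, darkest for Mcm6, Mcm10, Chaf1b and Lig1, whereas Ccne1 is red in all 3 cocultured libraries.

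Every cocultured library lay on the same side. Relative to the lone mean, the median of the 46 genes was −0.02, 0.02 and 0.02 on the log2 CPM scale in the lone libraries and −0.50, −0.36 and −0.44 in the cocultured libraries, so the decrease was least in cocultured replicate 2. For 34 genes (73.9%) every cocultured library was below every lone library, which held for 26.1% of all genes. All 30 genes called lower were among them. Together the members took 0.176% to 0.182% of all counts in lone fibroblasts and 0.128% to 0.139% after coculture. Their summed FPKM (fragments per kilobase of gene and per size of the library), a level scaled to gene length, was 391 ± 8.02 alone and 296 ± 11.7 after coculture (SD, n = 3 each, ratio of means 0.756). Across the 46 genes, which share the same libraries, the Spearman rho between log2 fold change and lone FPKM was 0.080.

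Library totals ranged from 12050529 to 13209581 counts, and 3 counts correspond to 0.223 to 0.254 CPM, the count scaled with TMM factors to a common library total. The lowest count of any member in any library was 28. Values written with ± below are the mean and SD of the 3 libraries of a group (n = 3 each), and adjusted p is from edgeR's quasi-likelihood test over all 13088 genes. The 12 fibroblast markers, including Col1a1, Col1a2 and Col3a1, were all expressed enough to test, 9 of them lower and 1 higher after coculture, and their summed CPM was 34482 to 36401 in lone and 14648 to 16324 in cocultured libraries, mainly through the collagens. Of 14 T cell markers, 7 (Cd3d, Cd8a, Cd2, Cd5, Il17a, Il17f and Ccr6) were at 0 counts in all 6 libraries, and the list summed to 7.07 to 9.90 CPM alone and 4.80 to 5.58 CPM after coculture. The 14 macrophage markers included 6 that could be tested, of which 5 were reduced, against 20.0% of all genes tested. Their summed CPM was 59.2 to 62.7 alone and 20.0 to 21.2 after coculture. Adgre1 (F4/80) had 71, 47 and 55 counts in lone libraries and 0 in each cocultured library, where 6 of the 14 markers were at 0. Macrophage transcripts thus moved in the same direction as the replication genes, and their part in the values below was not tested. Epithelial markers summed to 22.2 to 23.8 CPM alone and 7.84 to 9.12 CPM after coculture, and endothelial markers to 6.80 to 8.04 and 2.06 to 3.07 CPM, again with their part not tested, as for the decrease of fibroblast markers.

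**Figure D2:**
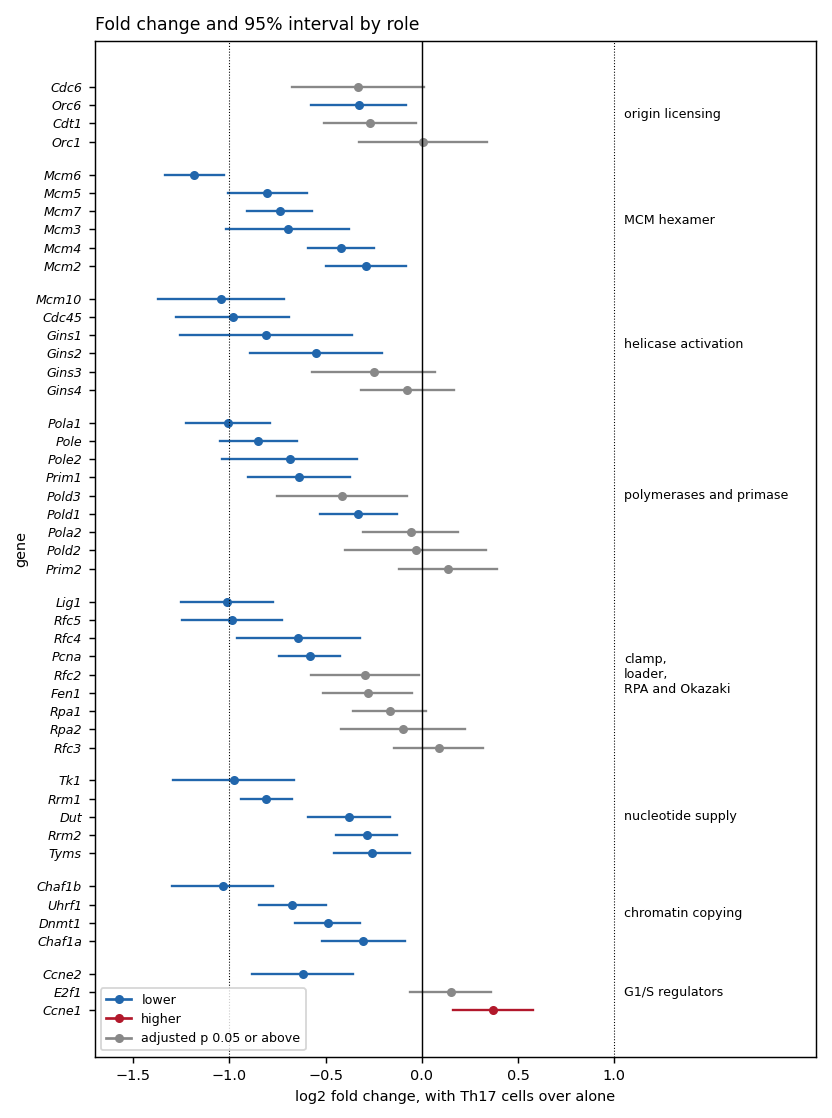
Log2 fold change of each of the 46 genes (points) with its 95% interval (lines), with Th17 cells over alone, grouped by role and coloured by call at an adjusted p below 0.05. All MCM ring, nucleotide supply and chromatin copying genes lie left of 0, and Ccne1, at 0.37, is the only gene called higher.

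Of the licensing factors Orc1, Orc6, Cdc6 and Cdt1, only Orc6 was called lower. Orc6, the smallest subunit of the origin recognition complex and the most abundant of the 4 by FPKM, had 25.9, 22.6 and 24.8 CPM in lone fibroblasts and 17.7, 19.2 and 21.5 CPM after coculture. The groups did not overlap (log2 fold change −0.33, SE 0.109, adjusted p = 0.0424), but this call was lost in 10 of the 14 alternative analyses. Cdc6, the loader that joins the complex in G1, had 11.7, 12 and 12.1 CPM in lone fibroblasts and 7.74, 9.51 and 11.2 CPM after coculture, also without overlap, and did not pass the test (−0.33, SE 0.151, adjusted p = 0.119). Cdt1, its partner in loading MCM rings, had a log2 fold change of −0.27 (adjusted p = 0.0768) and was likewise below the lone values in every cocultured library. Orc1, an ATPase of the complex, had 13.5, 13 and 15 CPM in lone fibroblasts and 14.4, 16 and 11.3 CPM after coculture. Its groups overlapped, and the log2 fold change was 0.01 with a 95% interval of −0.32 to 0.34.

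The ring that licensing loads was lower throughout. All 6 MCM ring genes fell, with a median log2 fold change of −0.72, although by unequal amounts. Mcm6 (chromosome 1, 128331590 to 128359664), the gene with the upstream sequence that held 3 E2F matches, had 85.8, 82.9 and 84.4 CPM in lone fibroblasts and 38, 37.4 and 35.9 CPM after coculture. The replicates of each group lay close together and far from the other group, and expression fell from 84.3 ± 1.45 to 37.1 ± 1.07 CPM, the largest decrease of all 46 genes (log2 fold change −1.18, SE 0.0676, adjusted p = 1.48e-06). Mcm5 (chromosome 8, 75109528 to 75128439) fell from 52.2 ± 4.05 to 29.9 ± 2.0 CPM (log2 fold change −0.80, SE 0.0903, adjusted p = 0.000130), Mcm7 from 64.4 ± 1.55 to 38.6 ± 2.19 CPM (−0.74, SE 0.0749, adjusted p = 6.59e-05) and Mcm3 from 64 ± 8.34 to 39.6 ± 7.27 CPM (−0.70, SE 0.141, adjusted p = 0.00423). Mcm4, the most abundant of the ring genes by FPKM, had 70.8, 69.1 and 66.2 CPM in lone fibroblasts and 48.5, 54.7 and 50.8 CPM after coculture, without overlap (log2 fold change −0.42, SE 0.0750, adjusted p = 0.00207). Mcm2 fell least and had 67, 68 and 69.1 CPM in lone fibroblasts and 52, 63.4 and 51.5 CPM after coculture. Its cocultured replicate 2 came close to the lone libraries (log2 fold change −0.29, SE 0.0921, adjusted p = 0.0350), and this call was kept in 7 of the 14 alternatives.

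Because MCM2 to MCM7 enter the ring in equal numbers, their levels per length were also compared. In lone fibroblasts the FPKM of Mcm6 was 1.88 to 1.97 times that of Mcm2, and after coculture it was 0.908 to 1.12 times that of Mcm2. The levels of these genes were thus apart in lone and near each other in cocultured libraries. Mcm6 over Mcm4 likewise went from 0.740 to 0.787 down to 0.422 to 0.484. The spread over the whole ring, highest over lowest FPKM, was 2.39 to 2.64 alone and 2.58 to 2.66 after coculture. These pairs, and those below, were chosen after the values were seen and are given as descriptions, since 3 libraries against 3 cannot give an exact two-sided permutation p below 0.1.

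Of the 6 factors that turn the loaded ring into a moving helicase, 4 fell, with a median log2 fold change of −0.68. Mcm10, which promotes the separation of the loaded rings at initiation, had 19.3, 19.2 and 19 CPM in lone fibroblasts and 8.48, 11.4 and 8.0 CPM after coculture. Lone values were nearly identical and lay above every cocultured value (log2 fold change −1.04, SE 0.145, adjusted p = 0.000483). Cdc45, the helicase cofactor, fell from 24.2 ± 1.94 to 12.2 ± 1.76 CPM (−0.98, SE 0.129, adjusted p = 0.000353). The 4 GINS genes, whose products form a single complex, had unlike values. Gins1 fell from 4.42 ± 0.201 to 2.52 ± 0.402 CPM (log2 fold change −0.81, SE 0.197, adjusted p = 0.0108) and Gins2 from 20.1 ± 2.38 to 13.8 ± 2.47 CPM (−0.55, SE 0.152, adjusted p = 0.0194). Gins3 had a log2 fold change of −0.25 (adjusted p = 0.197), with every cocultured library below every lone library. Gins4, the most abundant of the helicase activation genes by FPKM, had 21.1, 23.8 and 24.3 CPM in lone fibroblasts and 20, 23.7 and 21.9 CPM after coculture. Its groups overlapped (log2 fold change −0.08, 95% interval −0.32 to 0.17, adjusted p = 0.618). By FPKM, Gins1 was 0.138 to 0.146 times Gins4 in lone libraries and 0.0680 to 0.0997 times Gins4 in cocultured libraries.

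Among the polymerases, catalytic subunits were called lower, and partner subunits ranged from a called decrease for Pole2 to no detected difference. The calls do not follow size alone, as Pold3 was not called at −0.41 and Pold1 was called at −0.33. Of 9 genes 5 fell, with a median of −0.41. Pola1 (chromosome X, 93304767 to 93632155) encodes the catalytic subunit of polymerase alpha, which makes primers together with primase. It had 28.7, 29.7 and 28.3 CPM in lone fibroblasts and 14.5, 13.3 and 15.3 CPM after coculture. The groups were far apart, and expression fell from 28.9 ± 0.705 to 14.4 ± 1.02 CPM (log2 fold change −1.01, SE 0.0971, adjusted p = 4.77e-05). Pola2, the accessory subunit of the same enzyme, had 22.5, 25.2 and 27.1 CPM in lone fibroblasts and 24.4, 25.8 and 21.7 CPM after coculture, with overlapping groups (log2 fold change −0.06, 95% interval −0.30 to 0.19). Prim1, the primase catalytic subunit, fell from 15.3 ± 0.339 to 9.82 ± 0.892 CPM (log2 fold change −0.64, SE 0.117, adjusted p = 0.00238). Prim2, the large primase subunit, had 16.4, 18.7 and 19.5 CPM in lone fibroblasts and 21.7, 19.7 and 18.5 CPM after coculture. Its groups overlapped, and it had the highest log2 fold change of the polymerase genes, 0.14 (95% interval −0.12 to 0.39, adjusted p = 0.380). By FPKM the ratio of Pola1 to Pola2 was 0.300 to 0.366 in lone and 0.148 to 0.203 in cocultured libraries, and that of Prim1 to Prim2 was 0.807 to 0.979 and 0.501 to 0.535.

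Polymerase epsilon copies the leading strand and polymerase delta the lagging strand. Pole, the catalytic subunit of polymerase epsilon, fell from 35.8 ± 0.200 to 19.8 ± 1.41 CPM (log2 fold change −0.85, SE 0.0887, adjusted p = 7.97e-05) and its subunit Pole2 from 9.84 ± 1.41 to 6.10 ± 0.452 CPM (−0.69, SE 0.155, adjusted p = 0.00737). Pold1, the catalytic subunit of polymerase delta, fell from 31.3 ± 0.877 to 24.9 ± 1.64 CPM (−0.33, SE 0.0883, adjusted p = 0.0169). Its partners were not called, with log2 fold changes of −0.41 for Pold3 (95% interval −0.75 to −0.08, adjusted p = 0.0558) and −0.03 for Pold2 (95% interval −0.40 to 0.34, adjusted p = 0.904). The remaining subunits, which belong to the list of other replication factors, were at −0.04 for Pole3, −0.43 for Pole4 and 0.14 for Pold4, and of these Pole4 was called lower. The difference between the polymerases was not tested.

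**Figure D3:**
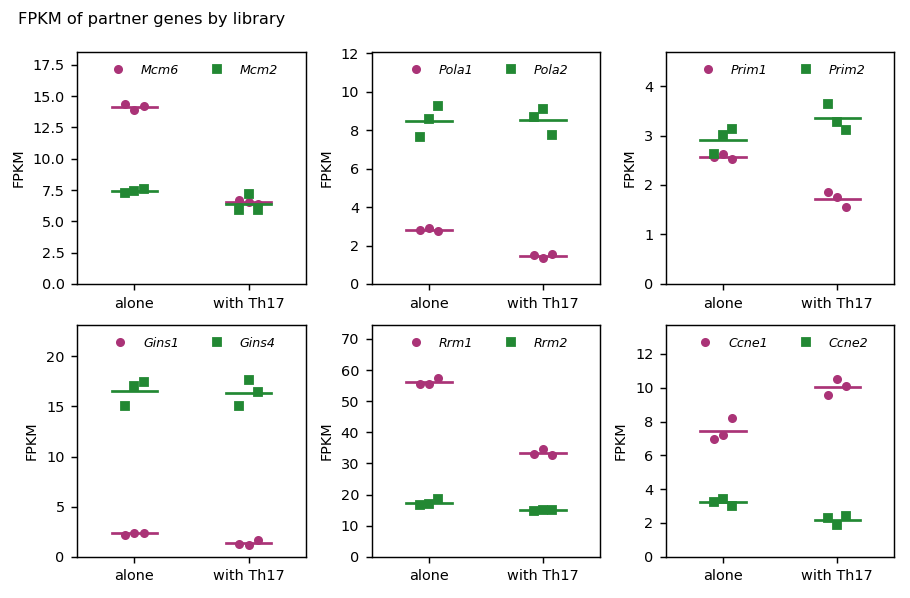
FPKM (vertical axis, from 0) of 6 pairs of partner genes in each library (points) with group means (lines), alone and with Th17 cells. Mcm6 drops onto the level of Mcm2, Pola1, Prim1, Gins1 and Rrm1 drop while their partners stay near or above their lone level or fall less, and Ccne1 and Ccne2 move apart.

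The clamp, its loader, the single-strand binding protein and the Okazaki fragment enzymes gave a mixed picture, with 4 of 9 genes lower and a median of −0.29. Pcna (chromosome 2, 132249162 to 132253314), the sliding clamp and the most abundant of these genes by FPKM, had 79.5, 74.7 and 82.8 CPM in lone fibroblasts and 51.5, 53.7 and 53.1 CPM after coculture. Cocultured values were tightly grouped below the lone values (log2 fold change −0.58, SE 0.0704, adjusted p = 0.000205). The processed pseudogene Pcna-ps2, listed separately, had 534, 532 and 507 counts alone and 376, 431 and 447 counts after coculture, so the split of reads between gene and pseudogene is uncertain. Lig1, the ligase that joins Okazaki fragments, had 43, 45.2 and 50.5 CPM in lone fibroblasts and 20.2, 24.3 and 24.3 CPM after coculture, less than the lone values in every library (log2 fold change −1.01, SE 0.106, adjusted p = 7.87e-05). Fen1, which trims the flaps that Lig1 then seals, had a log2 fold change of −0.28 (adjusted p = 0.0556).

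Clamp loader subunits had unlike values. Rfc5 fell from 19.8 ± 1.48 to 10 ± 0.708 CPM (log2 fold change −0.99, SE 0.115, adjusted p = 0.000162) and Rfc4 from 10.4 ± 0.777 to 6.68 ± 0.714 CPM (−0.64, SE 0.142, adjusted p = 0.00673). Rfc2 had a log2 fold change of −0.29 (adjusted p = 0.0943), with its lone values spread from 24.9 to 34.4 CPM. Rfc3, a subunit of the same complex with 2 E2F matches in its window, had 16.8, 16.6 and 18 CPM in lone fibroblasts and 19.1, 17 and 18.5 CPM after coculture. Its groups overlapped (log2 fold change 0.09, 95% interval −0.14 to 0.32). For the single-strand binding genes the log2 fold changes were −0.17 for Rpa1 (95% interval −0.36 to 0.02, adjusted p = 0.154) and −0.10 for Rpa2 (−0.42 to 0.22, adjusted p = 0.622), and their groups overlapped.

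All 5 genes of deoxynucleotide supply fell, with a median log2 fold change of −0.38. Rrm1 (chromosome 7, 102441695 to 102469771), the large subunit of ribonucleotide reductase and the most abundant of all 46 genes by FPKM, had 228, 227 and 234 CPM in lone fibroblasts and 129, 137 and 127 CPM after coculture. The fall from 229.7 ± 3.68 to 131 ± 5.10 CPM was far larger than the spread within either group (log2 fold change −0.81, SE 0.0584, adjusted p = 7.19e-06). Rrm2, the small subunit made in S phase, fell from 66.1 ± 3.38 to 54.2 ± 0.879 CPM (−0.29, SE 0.0706, adjusted p = 0.0113). Their FPKM ratio, Rrm1 over Rrm2, was 3.11 to 3.34 alone and 2.19 to 2.31 after coculture. Tk1, the thymidine kinase of dividing cells, had 18.9, 20.8 and 21.4 CPM in lone fibroblasts and 9.60, 9.04 and 12.3 CPM after coculture, with every cocultured value far below the lone values (log2 fold change −0.98, SE 0.139, adjusted p = 0.000545). Tyms, which makes thymidylate, had 45.4, 42 and 46.8 CPM in lone fibroblasts and 34.5, 37.6 and 40.1 CPM after coculture. Its groups were separate but close (log2 fold change −0.26, SE 0.0865, adjusted p = 0.0425), and the call was kept in only 4 of the 14 alternatives. Dut, which removes dUTP, fell from 24.6 ± 1.55 to 19 ± 0.216 CPM (−0.38, SE 0.0936, adjusted p = 0.0116).

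Genes that rebuild chromatin and copy DNA methylation behind the fork also fell, 4 of 4, with a median of −0.58. Chaf1b (chromosome 16, 93883901 to 93906115), the middle subunit of the histone chaperone CAF-1, had 26.3, 27.4 and 26.2 CPM in lone fibroblasts and 11.2, 13.4 and 14.4 CPM after coculture. Lone values lay close together and above every cocultured value (log2 fold change −1.04, SE 0.116, adjusted p = 0.000125). Chaf1a, its large subunit, had 37.2, 39.1 and 36.7 CPM in lone fibroblasts and 30.1, 33.9 and 27.6 CPM after coculture, without overlap but with a smaller decrease (log2 fold change −0.30, SE 0.0949, adjusted p = 0.0329) that was called in 6 of the 14 alternatives. Dnmt1, the maintenance DNA methyltransferase, was the most abundant of these genes by FPKM and had 123, 134 and 127 CPM in lone fibroblasts and 91.4, 98 and 84 CPM after coculture. Its groups were separate (log2 fold change −0.49, SE 0.0743, adjusted p = 0.000820). Uhrf1, which guides DNMT1 to newly copied DNA, fell from 55.8 ± 1.69 to 35 ± 1.99 CPM (−0.67, SE 0.0769, adjusted p = 0.000144).

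The E-type cyclins, which activate CDK2 at the entry to S phase, moved in opposite directions. Ccne1 (chromosome 7, 38097984 to 38107534) had 26.9, 27.8 and 31.4 CPM in lone fibroblasts and 35.1, 39 and 37 CPM after coculture. All cocultured values exceeded all lone values, and expression rose from 28.7 ± 2.40 to 37 ± 1.94 CPM (log2 fold change 0.37, SE 0.0924, adjusted p = 0.0121), a call that held in 13 of the 14 alternatives and was lost without lone replicate 1 (0.32, adjusted p = 0.0505). Ccne2 (chromosome 4, 11191351 to 11204779) had 25.9, 27.2 and 24 CPM in lone fibroblasts and 17.4, 14.5 and 18.3 CPM after coculture. Here all cocultured values were below the lone values, and expression fell from 25.7 ± 1.59 to 16.7 ± 2.0 CPM (−0.62, SE 0.116, adjusted p = 0.00267). Ccne1 over Ccne2, as a ratio of FPKM, was 2.11 to 2.71 alone and 4.18 to 5.59 after coculture. E2f1, a transcription factor that drives many genes of the set, had 32, 31.1 and 30 CPM in lone fibroblasts and 34, 37.8 and 31.4 CPM after coculture. Its groups overlapped, and no difference was detected (log2 fold change 0.15, 95% interval −0.06 to 0.36, adjusted p = 0.246).

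Beyond the 46, other factors of the replication fork were mostly lower or not called. Of 32 further replication genes, 16 were lower and 2 higher, with a median of −0.38. Among all genes tested, 20.0% were lower and 17.1% higher. Dscc1, part of an alternative clamp loader, fell from 3.88 ± 1.10 to 1.23 ± 0.289 CPM (log2 fold change −1.65, SE 0.308, adjusted p = 0.00265), and Cdc7, the kinase that triggers MCM helicases, from 13.8 ± 1.83 to 6.07 ± 0.785 CPM (−1.18, SE 0.156, adjusted p = 0.000362). Rnaseh2c, a subunit of the enzyme that removes ribonucleotides from DNA, was higher at 0.56 (adjusted p = 0.0372), as was Orc3 at 0.28 (adjusted p = 0.0307). Both higher calls were lost without lone replicate 1, lone replicate 3 or cocultured replicate 1.

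Of 32 other genes of nucleotide synthesis, 5 were lower and 3 higher, not above the 20.0% and 17.1% of all genes tested, and the median was 0.07. Samhd1, which degrades deoxynucleotides, fell from 226 ± 3.30 to 67.9 ± 7.77 CPM (log2 fold change −1.73, SE 0.0861, adjusted p = 6.24e-07). The genes with the highest fold changes were Ppat, the first enzyme of purine synthesis, at 0.57 (adjusted p = 0.00125), and Gart, another purine enzyme, at 0.36 (adjusted p = 0.00272). With library size as the only scaling, 7 genes of this list were higher, as were 2911 of all 13088 genes tested.

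**Figure D4:**
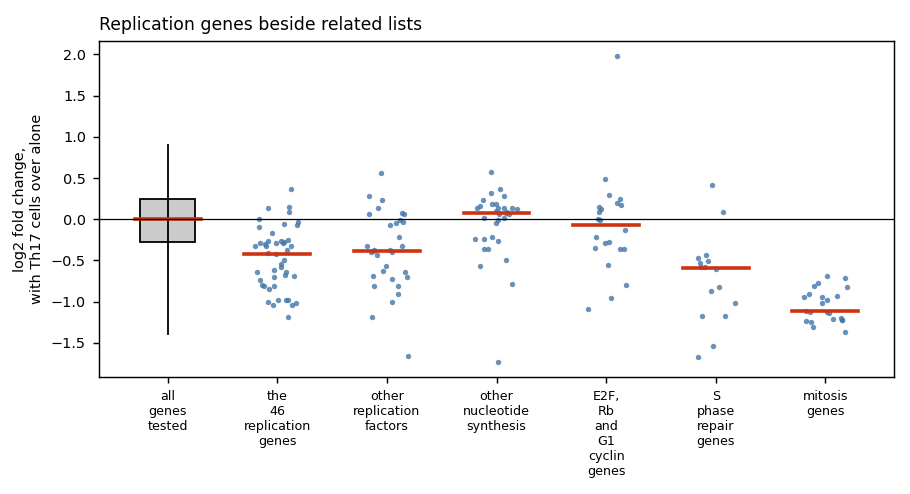
Log2 fold change with Th17 cells over alone for the 46 genes and 5 related lists, with points for genes and red lines for medians. The box shows the quartiles of all 13088 genes tested and its whiskers their 5th and 95th percentiles. Mitosis genes lie lowest, with a median of −1.11, and other nucleotide synthesis genes centre near 0.

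Of 22 E2F, retinoblastoma family and G1 cyclin genes, 5 were lower and 3 higher, shares near the 20.0% and 17.1% of all genes tested. Their median was −0.07, which was near 0 and changed sign with limma on log2(FPKM + 1). E2f7, a repressor among the E2F factors, fell from 17.8 ± 0.813 to 8.35 ± 0.353 CPM (log2 fold change −1.09, SE 0.111, adjusted p = 6.71e-05), and Mybl2, which cooperates with FOXM1, from 21.1 ± 1.72 to 10.9 ± 2.0 CPM (−0.96, SE 0.147, adjusted p = 0.000864). Ccnd1, the cyclin that couples growth signals to CDK4 and CDK6, rose from 91.6 ± 1.40 to 361 ± 16.1 CPM (1.98, SE 0.0609, adjusted p = 4.57e-08), and E2f6, another repressive factor, from 38.6 ± 1.75 to 54.4 ± 2.19 CPM (0.49, SE 0.0757, adjusted p = 0.000866). Cyclin D1 and cyclin E1 transcripts thus rose in the libraries in which most replication transcripts fell.

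Genes of DNA repair and of mitosis were examined beside the replication genes. Of 16 S phase repair genes 11 were lower, against 20.0% of all genes tested, and their median was −0.59. Rad54l, a helicase of homologous recombination, fell from 14.7 ± 1.09 to 4.61 ± 1.56 CPM (log2 fold change −1.67, SE 0.226, adjusted p = 0.000411), and Bard1, the partner of BRCA1, from 9.42 ± 2.33 to 3.24 ± 0.530 CPM (−1.54, SE 0.221, adjusted p = 0.000583). All 23 mitosis genes were lower, 13 of them more than 2-fold, against 20.0% and 7.78% of all genes tested. Their median was −1.11, against −0.42 for the 46 replication genes. The lowest were Ccnb2, a mitotic cyclin, which fell from 32.2 ± 1.96 to 12.5 ± 2.84 CPM (log2 fold change −1.37, SE 0.157, adjusted p = 0.000148), and Ccna2, the cyclin of S phase and G2, which fell from 111 ± 3.2 to 44.7 ± 2.57 CPM (−1.31, SE 0.0711, adjusted p = 1.06e-06). The difference between lists is a description of their medians and was not tested.

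The calls depended on the gene. For 22 of the 30 genes called lower, the call held in all 14 alternative analyses, and those whose calls held in fewer than 8 were Orc6, Mcm2, Tyms and Chaf1a, all with log2 fold changes between −0.33 and −0.26. In the GENCODE M21 annotation 16 members share exon sequence with another gene, which makes their counts uncertain because the sources do not tell if reads were counted by strand. They are Orc1, Orc6, Mcm7, Cdc45, Gins2, Pole, Pole2, Rfc2, Rfc4, Rfc5, Rpa1, Fen1, Lig1, Tk1, Chaf1a and Ccne2. Among the other 30 members, 18 were lower and 1 higher, against 20.0% and 17.1% of all genes tested, with a median of −0.35.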

How the data were processed

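After quality filtering (Seqtk), the authors used HISAT2 2.0.4 for alignment and StringTie 1.3.3b for counting, and the build in the submitters' processing notes is mm10. They deposited whole fragment counts and, beside each count, FPKM, which divides the count by gene length and by library total. Use of strand and the handling of reads that match several genes were not given in the sources used here. From the counts, genes were kept by filterByExpr (minimum count 10), scaled by TMM and tested in R 4.3.3 with edgeR 4.0.16 (glmQLFit and glmQLFTest, adjusted by Benjamini-Hochberg over all 13088 genes), with only these 6 libraries and no covariate. The SE is the log2 fold change divided by the square root of F. FPKM was used for levels per length, ratios and 1 alternative test.

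Alternatives were 3 other scalings, DESeq2 1.42.0, other filters on low counts (none, and at least 10 counts in every library), the replicate number as a block, limma 3.58.1 on log2(FPKM + 1), which understates changes of genes with low values, and leaving out each library. The restriction to members without exon overlap was chosen after the data had been seen. The members and lists were chosen with earlier results of these data known, and no list was tested as a set. Library values are given for the lowest, the highest and the most abundant gene of each role. For other lists the genes named are the 2 lowest and 2 highest log2 fold changes called at an adjusted p below 0.05, and some genes that this rule picks are not reported here. Duplicate deposits were not found, as chi-square per gene (genes with at least 30 summed counts) between libraries of a group was at least 6.58. It was 15.7 and 14.5 for cocultured replicate 3 against the others of its group, and 6.58 to 8.75 for the remaining pairs within a group. The tests were checked on simulated counts with changes of 2-fold or more, so the smaller changes of most members were not covered. Positions are as deposited, and all 46 overlap the same gene in GENCODE M21 (GRCm38). The CPM that equals 3 counts is given as a scale only and was not used to model counting error. Promoter windows are RefSeq sequences matched by symbol, chromosome and strand. Python 3.11.15, pandas 2.3.3 and matplotlib 3.10.9 were used.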

Additional observations from a re-analysis of the deposited data

How the results depend on the processing

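The count of members called lower was 23 to 30 over the alternatives that kept all 46 genes, and their median stayed negative in each. Of all genes tested, 13.9% to 20.3% were lower in these alternatives. With library size only, 1 member passed the 2-fold limit and the members' median was −0.35, and the medians were −0.32 for other replication factors, 0.14 for other nucleotide synthesis (7 higher) and −0.53 for repair. With limma on log2(FPKM + 1) the same values were 1, −0.31, −0.21, 0.10 (7 higher) and −0.38, with −0.76 for mitosis and 0.00443 for E2F, Rb and G1 cyclin genes, a change of sign. Members without exon overlap had 18 lower and a median of −0.35, chosen after seeing the data. With DESeq2, 1 other replication factor and 0 repair genes were higher.

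Leaving out each library gave 23 to 29 members lower, 0 to 1 higher, 2 to 7 past the 2-fold limit and medians of −0.50 to −0.38. In the same fits 16.3% to 20.3% of all genes tested were lower. For other replication factors 0 to 2 were higher. For other nucleotide synthesis 4 to 9 were lower, with medians of 0.0324 to 0.0806. For E2F, Rb and G1 cyclin genes 3 to 6 were lower. For repair 0 to 1 were higher, with medians of −0.72 to −0.55, and for mitosis the medians were −1.14 to −1.03. Among members not called, leaving out a library moved Orc1 between −0.10 and 0.14, Pola2 between −0.13 and 0.0115, Pold2 between −0.17 and 0.0779 and Rpa2 between −0.20 and 0.0130. With library size only and limma, Pola2 was at 0.00557 and 0.00545 and Pold2 at 0.0333 and 0.0277.

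Deviations of libraries with the same replicate number correlated at 0.0157, −0.0256 and −0.0036. Such values show no shared signal, but they cannot tell if these libraries came from the same mouse or batch. With the replicate block 29 members were lower (18.8% of all genes tested), 1 higher and 5 past the 2-fold limit, with a median of −0.42. In that fit 0 other replication factors and 0 repair genes were higher, and Orc1 was at −0.000801. The cause of these shifts was not tested. With 3 libraries a group, Orc6, Mcm2, Tyms and Chaf1a, with SE of 0.0865 to 0.109 and log2 fold changes of −0.33 to −0.26, lay at the limit of the test.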

Other observations

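Within the other nucleotide synthesis genes, 6 encode the enzymes that build purines from phosphoribosyl pyrophosphate, a subset set apart after the values were seen. All 6 had positive log2 fold changes, with a median of 0.21, against 0.00 for all genes tested. The 3 that passed the test were Ppat at 0.57, Gart at 0.36 and Paics at 0.29 (adjusted p = 0.0144). Of all genes tested, 17.1% were called higher. Their summed CPM was 332 to 341 in lone and 384 to 398 in cocultured libraries, so purine enzyme transcripts were not lower in the libraries in which thymidylate and ribonucleotide reductase transcripts fell. In the same list Shmt2, the mitochondrial serine hydroxymethyltransferase, fell from 328 ± 13 to 256 ± 13.8 CPM (mean and SD of 3 libraries each), and Dck, the deoxycytidine kinase of nucleoside salvage, from 27.5 ± 1.79 to 19.5 ± 1.74 CPM (log2 fold changes −0.36 and −0.49, adjusted p = 0.00193 and 0.00523). Shmt2 and Dck were named after their values were seen.

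Other short motifs were counted in the same 38 promoter windows on both strands. CCAAT stood in 22 windows (57.9%; 39.0% of tested genes), and members with and without it had median log2 fold changes of −0.54 and −0.35. GGGCGG stood in 28 (73.7%; 66.1% of tested genes), and here the order was the other way, with medians of −0.35 and −0.565. TTTGAA stood in 5 (13.2%; 11.5% of tested genes), with medians of −0.29 and −0.41. Over all tested genes the medians with and without CCAAT were 0.00 and 0.01. These shares and medians describe the windows and were not tested.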
